A study of Mus musculus with 10 samples.

Results

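Chromosome 8 of male mouse embryonic stem cells (mESCs) was followed by whole-genome DNA sequencing, through all 12941 windows of 10 kb that the deposited log2 table lists for this chromosome, out of 272566 windows in the genome (4.75%). The study asked whether modified culture conditions keep the genome of mESCs closer to its starting state than the reference conditions. It used 10 libraries from 5 groups of 2, and depth ranged from 27270648 to 35354358 reads per library. Replicates 1 and 2 are independently derived male C57/Bl6 lines without a named transgene or deletion, kept throughout in 2i medium. The p0 group is the start of the experiment, at which each line was divided between both conditions. The other groups are p10 and p20, after 10 and 20 passages, in the Mulas2019 conditions (the published reference, called Old in the titles) or in the Keniry2022 conditions (called New, with daily passage of cells in suspension). Per the methods both lines were derived with the study's own culture methods before p0, so that the Mulas2019 groups alone changed conditions there. Cells in Keniry2022 conditions were passaged more often, so that p20 Keniry2022 and p10 Mulas2019 had spent the same number of days in culture. With 2 lines in a group the spread between replicates is weakly estimated. Earlier results on Y chromosome reads put in doubt which p20 Keniry2022 library came from which line, and these libraries are called by their labels.

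Mouse ES cells gain whole chromosomes when a cell with a growth advantage takes over the culture. Trisomy of chromosome 8, an extra copy in an otherwise diploid cell, is the classic example, and cells that carry it tend to outgrow their normal neighbours and to contribute poorly to the germ line. In DNA sequencing such a gain raises the reads of the whole chromosome by the same factor in each cell that has it, so that the dose of a culture is an average over normal and trisomic cells. The chromosome has its centromere at one end, at the low coordinates, and carries genes of pluripotency, signalling, chromatin and the cell cycle side by side. Sequencing libraries also differ in how well they recover DNA rich in guanine and cytosine (GC), which can raise or lower blocks of a chromosome without any change in copy number.

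Base composition varies along chromosome 8. The stretches below show this for the middle of a window in the bin with the highest and in the bin with the lowest change from p0 at p10 Mulas2019, on the plus strand of GRCm38 (mm10), with G and C in capitals.
chr8:50494926-50495075: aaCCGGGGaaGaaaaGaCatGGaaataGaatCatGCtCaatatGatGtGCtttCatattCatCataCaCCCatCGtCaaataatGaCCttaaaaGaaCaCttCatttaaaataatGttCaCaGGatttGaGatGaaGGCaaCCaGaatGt
chr8:120494926-120495075: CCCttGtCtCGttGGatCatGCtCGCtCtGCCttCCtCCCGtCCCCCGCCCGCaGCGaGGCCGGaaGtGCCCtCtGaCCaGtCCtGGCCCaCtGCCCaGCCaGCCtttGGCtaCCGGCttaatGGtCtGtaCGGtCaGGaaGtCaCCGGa
The first, with 34.7% GC, lies in an intron of the long non-coding RNA genes Gm45341 and Gm45455. The second, with 64.7% GC, lies in an intron of Gse1, a protein-coding gene, and of the overlapping gene model Gm20388. The whole 10 kb windows around them have 32.3% and 54.5% GC. The 10 kb window around the first had 2.03 and 1.96 counts per 1e6 reads (CPM) at p0 and 3.15 and 3.68 at p10 Mulas2019 in replicates 1 and 2. It had 2.28 and 2.10 CPM at p20 Mulas2019, 1.87 and 3.02 at p10 Keniry2022, and 2.17 and 2.12 in the p20 Keniry2022 libraries. This AT-rich window was above p0 in both lines of every later group except in p10 Keniry2022 replicate 1, which was below it. It held few reads, with 62 and 60 at p0, 80 and 60 at p20 Mulas2019, and 59 and 98 at p10 Keniry2022. The p20 Keniry2022 libraries had 71 and 70. With such counts a small difference in CPM cannot be told from counting error. The window around the second had 6.16 and 6.23 CPM at p0 and 3.63 and 4.53 at p10 Mulas2019. It had 5.78 and 4.69 CPM at p20 Mulas2019, 5.91 and 5.30 at p10 Keniry2022, and 5.14 and 6.18 in the p20 Keniry2022 libraries. The GC-rich window was below the p0 library of the same replicate number in all 8 later libraries, but the 6.18 CPM of the library labelled p20 Keniry2022 replicate 2 is above the 6.16 of p0 replicate 1. Both windows come from the bins with the highest and the lowest change from p0 at p10 Mulas2019, so that their direction in that group follows from the choice.

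Of the 12941 windows, 371 held no called base of the assembly, and 300 of these were the unsequenced start of the chromosome. No library had a read in 376 windows, of which 5 did hold called bases. The median window of chromosome 8 held 113 to 150 reads, depending on the library. Reads were summed to 130 bins of 1 Mb, and 127 passed a filter on low bins (mean CPM of at least 0.1 of the median bin). The 3 that failed were chr8:1-3000000, where no base is called. The GC content of chromosome 8 was 42.4%, close to the 42.0% of the reference, and its bins ranged from 36.2% to 52.4%. The annotation places 1040 protein-coding genes on the chromosome.

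Chromosome 8 took 5.25% and 5.23% of all reads in the p0 libraries of replicates 1 and 2. Its share was 5.10% and 5.08% at p10 Mulas2019, and 5.16% and 5.11% at p20 Mulas2019. It was 5.19% and 5.17% at p10 Keniry2022, and 5.20% and 5.21% in the libraries labelled p20 Keniry2022 replicates 1 and 2. The share was thus highest at p0 and lowest at p10 Mulas2019, and none of these groups overlapped with p0. Counting error on the reads of chromosome 8 was only 0.0743% to 0.0848%, so that the Wilson 95% interval of the share was, for example, 5.24% to 5.25% in p0 replicate 1 and 5.09% to 5.10% in p10 Mulas2019 replicate 1. These intervals cover counting error only. An extra copy in every cell would raise the dose by 0.585 on the log2 scale.

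The dose of chromosome 8 was computed as the median of its bins against the median of the 2107 bins of 17 reference autosomes, which are all except chromosome 8 and chromosome 3, and 2 copies were assigned to the reference. A relative dose of this kind cannot show a change of the whole genome. Before any correction for GC content the dose was 2.04 and 2.04 copies at p0, 1.97 and 1.98 at p10 Mulas2019, and 2.01 and 2.00 at p20 Mulas2019. It was 2.03 and 2.01 copies at p10 Keniry2022, and 2.06 and 2.07 in the p20 Keniry2022 libraries. The reference autosomes ranged from 1.80 to 2.40 copies in the same libraries, so chromosome 8 lay inside their range throughout. After correction for GC content the dose of chromosome 8 was 1.99 and 1.99 copies at p0, 1.99 and 1.99 at p10 Mulas2019, and 1.99 and 1.98 at p20 Mulas2019. It was 1.98 and 1.99 copies at p10 Keniry2022, and 1.99 and 1.98 in the libraries labelled p20 Keniry2022 replicates 1 and 2. All 10 libraries fell between 1.982 and 1.994 copies, and the reference autosomes between 1.961 and 2.052. Chromosome 8 ranked 12 to 15 of 18 autosomes by dose in every library, p0 included. Against 2 SD of the doses of the reference autosomes in the same library, an extra copy in fewer than 3.98% to 4.88% of cells was not detectable after the correction. The dose of chromosome 8 corresponded to -1.81% to -0.58% of cells, so that a gain already present at p0 above that limit was not seen either. Uncorrected, this limit ran from 11.6% to 33.6% of cells. The single X of these male cells read 0.928 to 0.973 copies after the correction and 0.673 to 0.883 before it.

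**Figure D1:**
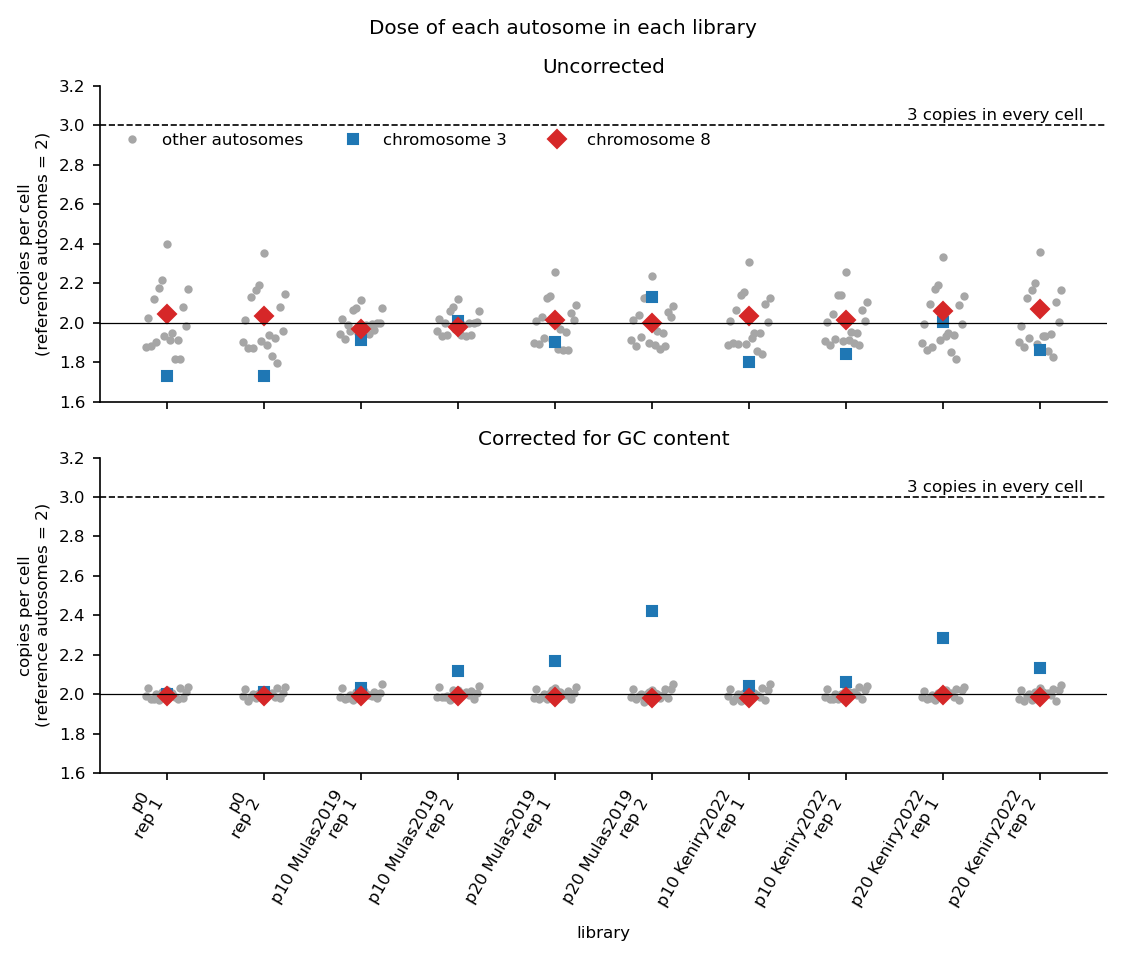
Dose of each autosome (y axis, copies per cell with the reference autosomes set to 2) in each of the 10 libraries (x axis), uncorrected above and GC-corrected below. Grey points are the 17 reference autosomes, red diamonds chromosome 8, blue squares chromosome 3, and the dashed line marks 3 copies in every cell. Chromosome 8 stays between 1.982 and 1.994 copies in the lower panel, while chromosome 3 moves away from the other autosomes in several libraries.

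For the change from p0 the limit of detection was taken as 2 SD of the change from p0 over the 17 reference autosomes of the same library, and expressed as the percent of cells that would need to carry an extra copy. With the GC correction this limit was 2.01% and 2.00% of cells at p10 Mulas2019 and 1.80% and 2.34% at p20 Mulas2019. It was 1.59% and 1.33% of cells at p10 Keniry2022, and 2.07% and 1.76% in the p20 Keniry2022 libraries. Against the p0 library of the same replicate number, chromosome 8 had changed by the equivalent of -0.18% and -0.13% of cells at p10 Mulas2019 and of -0.45% and -1.14% at p20 Mulas2019. It had changed by -0.94% and -0.75% at p10 Keniry2022, and by 0.24% and -0.86% in the libraries labelled p20 Keniry2022 replicates 1 and 2. All 8 changes lay within the limit. Their sign depended on the summary, since 7 of the 8 were below 0 with the median of bins and 2 of the 8 with the mean of bins. The reference autosomes are not replicates of chromosome 8, and their SD is a yardstick for the method. Without the GC correction the limit ranged from 4.59% of cells, in the library labelled p20 Keniry2022 replicate 2, to 22.4%, in p10 Mulas2019 replicate 1, and the 8 changes from -7.24% to 3.30% also lay within it. By the same measure chromosome 3 in p20 Mulas2019 replicate 2 had a GC-corrected change of 0.27 on the log2 scale. Chromosome 3 was left out of the reference with earlier results of these data known, so it is not an independent check of the limit.

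The groups were compared by fitting the dose of the 19 autosomes and X with limma, with the cell line as a random block and adjusted p-values over these 20 chromosomes. After GC correction the fitted change of chromosome 8 from p0 was -0.0011 on the log2 scale at p10 Mulas2019 (limma adjusted p = 0.787) and -0.0057 at p20 Mulas2019 (limma adjusted p = 0.355), each with an SE of 0.0029. At p10 Keniry2022 it was -0.0061 (limma adjusted p = 0.342), and for p20 Keniry2022 it was -0.0022 (limma adjusted p = 0.582). None passed the threshold of 0.05. Chromosome 3 did not pass in this fit either, although p20 Mulas2019 replicate 2 read 0.27. Its change was 0.19 at p20 Mulas2019 (limma adjusted p = 0.0969) and 0.14 at p20 Keniry2022 (limma adjusted p = 0.185), with an SE of 0.055. At p10 it was 0.049 in Mulas2019 (limma adjusted p = 0.562) and 0.035 in Keniry2022 conditions (limma adjusted p = 0.803). The upper 95% bounds of chromosome 8 corresponded to an extra copy in 0.80% and 0.16% of cells at p10 and p20 Mulas2019, and in 0.10% and 0.64% at p10 and p20 Keniry2022. These bounds rest on the spread between 2 lines and on the GC curve, and are narrower than the limits from the reference autosomes. In the same GC-corrected fit X passed in all 4 comparisons with p0. It rose by 0.064 and 0.021 at p10 and p20 Mulas2019 (limma adjusted p = 1.05e-05 and 0.0147). At p10 and p20 Keniry2022 it rose by 0.021 and 0.020 (limma adjusted p = 0.0128 and 0.0171). The 2 SD limit at p10 Mulas2019 was 0.014 in both libraries. The cause of this shift of X, at 39.3% GC, was not tested.

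The conditions were also compared directly. After GC correction Keniry2022 minus Mulas2019 was -0.0050 (SE 0.0029) after 10 passages (limma adjusted p = 0.304), while p20 gave 0.0035 (SE 0.0029, limma adjusted p = 0.745). The 95% interval of this difference was -1.64% to 0.26% of cells at p10 and -0.47% to 1.45% at p20. At the same number of days in culture, p20 Keniry2022 minus p10 Mulas2019 was -0.0011 (limma adjusted p = 0.911), with an interval of -1.11% to 0.80% of cells. The difference between the conditions in the change from p10 to p20 was 0.0085 (SE 0.0041, limma adjusted p = 0.381). With the mean of bins in place of the median, the comparison matched by days was 0.0045 (limma adjusted p = 0.0373). Against a reference of all 19 autosomes, which includes chromosome 3, the p20 Mulas2019 change was -0.011 (limma adjusted p = 0.0247).

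Without GC correction several of these comparisons passed the threshold, and chromosome 8 fell in Mulas2019 conditions. The fitted change from p0 was -0.048 (SE 0.0068) at p10 Mulas2019 (limma adjusted p = 3.87e-04) and -0.025 (SE 0.0068) at p20 Mulas2019 (limma adjusted p = 0.0141). Both lines were lower, by 0.053 and 0.043 at p10 and by 0.022 and 0.028 at p20. The p20 call was lost without p0 replicate 1 (-0.022, limma adjusted p = 0.0728) and without p20 Mulas2019 replicate 2 (-0.019, limma adjusted p = 0.0880). In Keniry2022 conditions p10 was at -0.012 (limma adjusted p = 0.200), whereas p20 was at 0.018 (limma adjusted p = 0.111). With 10 kb windows in place of bins these changes were -0.022, which passed, and -0.0071. Chromosome 8 was higher in Keniry2022 than in Mulas2019 conditions, by 0.036 at p10 (limma adjusted p = 0.00324) and by 0.043 at p20 (limma adjusted p = 0.00278). At matched days it was higher by 0.066 (limma adjusted p = 8.77e-05). In these 3 comparisons 15, 11 and 17 of the 20 chromosomes passed. Chromosome 8 was number 10, 3 and 7 of 18 autosomes by the size of its shift. At p10 Mulas2019, 19 of the 20 chromosomes passed the threshold in the uncorrected fit, and chromosome 8 was number 10 of 18 autosomes by the size of its shift. At p20 Mulas2019, 13 of the 20 passed, and chromosome 8 was number 11. The largest of these shifts of chromosome 8, 0.066, is small against the 0.585 of a full trisomy.

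**Figure D2:**
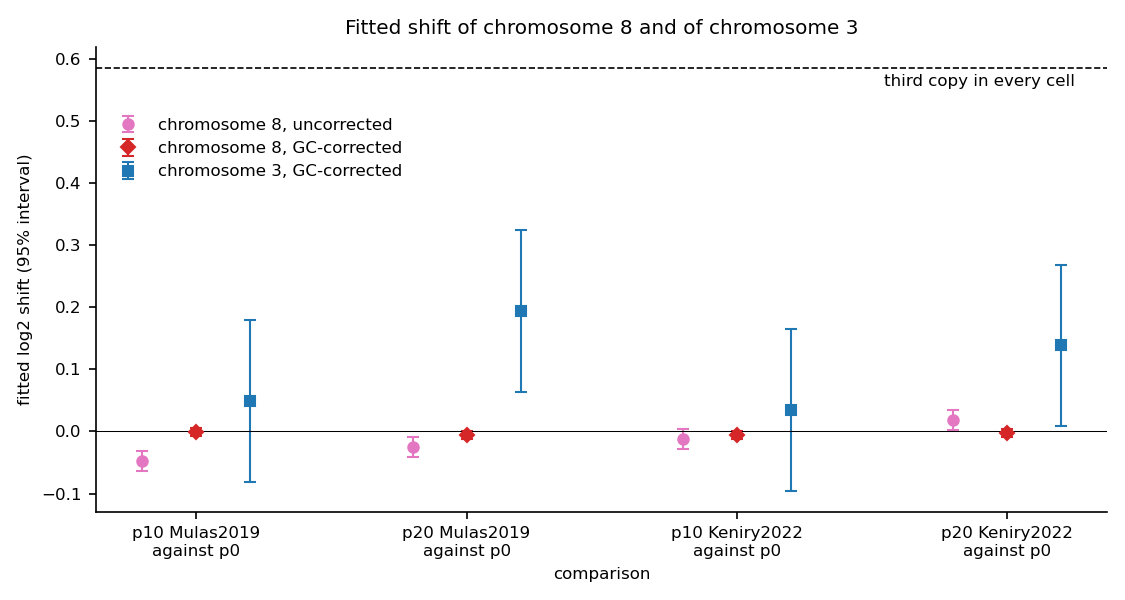
Fitted shift of chromosome 8, uncorrected and GC-corrected, and of chromosome 3, GC-corrected (y axis, log2, with 95% intervals from limma), in the 4 comparisons with p0 (x axis), which share the same 2 p0 libraries. The GC-corrected points of chromosome 8 lie between -0.0061 and -0.0011, and the dashed line marks the 0.585 of an extra copy in every cell.

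Single bins of chromosome 8 were tested against a minimum fold change of 1.1 (limma TREAT, Benjamini-Hochberg adjustment at 0.05 over all 2541 bins). At p10 Mulas2019, 37 of the 127 bins (29.1%) were higher than at p0 beside 33.1% of all bins tested, and 40 (31.5%) were lower beside 25.7%. At p20 Mulas2019, 11 bins (8.66%) were higher beside 8.74% of all bins, and 1 (0.787%) was lower beside 0.157% of all bins. At p10 Keniry2022, 7 bins (5.51%) were higher beside 4.21% of all bins, and at p20 Keniry2022 none passed in limma TREAT, nor at an unadjusted p under 0.05 (0 bins beside 0.787% of all bins) or with voom on the recovered reads (0 bins). Between conditions at p10, 16 bins (12.6%) were higher in Keniry2022 beside 8.03% of all bins, and 24 (18.9%) were lower beside 21.3%. At p20 no bin of chromosome 8 passed between the conditions in limma TREAT or with voom, and a single bin, 1 of 127, had an unadjusted p under 0.05 beside 0.236% of all bins. On the recovered reads, voom called 78 bins at p10 Mulas2019 (58.6% of all bins), 11 at p20 Mulas2019 (7.12% of all bins), 0 at p10 Keniry2022 (0.157% of all bins) and 42 between the conditions at p10 (30.7% of all bins). In either direction, limma TREAT called 77 bins (60.6%) at p10 Mulas2019 beside 58.8% of all bins, 12 of 127 at p20 Mulas2019 beside 8.89%, and 40 (31.5%) between the conditions at p10 beside 29.3%. With no minimum change limma called 115 bins (90.6%) at p10 Mulas2019 beside 89.3%, 104 (81.9%) at p20 Mulas2019 beside 80.6%, 95 (74.8%) at p10 Keniry2022 beside 73.4% and 20 (15.7%) at p20 Keniry2022 beside 17.4%. Between the conditions this gave 110 bins (86.6%) at p10 beside 81.7% and 88 (69.3%) at p20 beside 63.7%. The 2 directions at p10 Mulas2019 were thus seen on the same chromosome, and nothing particular to chromosome 8 is read from these shares. The counts at p20 Mulas2019 and p10 Keniry2022 depended on the block for the cell line, since without it 4 and 0 bins passed (4.76% and 0% of all bins) and with the line as a fixed block 19 passed at p20 Mulas2019 (12.2% of all bins). They also depended on single libraries. At p20 Mulas2019 no bin passed without either p0 library or without p20 Mulas2019 replicate 2, where 1.53% of all bins passed in the last case and none in the others. At p10 Keniry2022 none passed without either p0 library or without p10 Keniry2022 replicate 2, and 13 passed without p10 Keniry2022 replicate 1 (8.34% of all bins). Without that last library, 23 bins passed between the conditions at p10 (14.4% of all bins).

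The bins that rose and those that fell at p10 Mulas2019 had separate base composition. The 37 higher bins had at most 40.1% GC, with a median of 37.8%, and the 40 lower bins had at least 43.9% GC, with a median of 46.1%. The 7 bins higher at p10 Keniry2022 had at most 37.1% GC. Between conditions at p10 the order was turned, with a median of 48.4% GC in the bins higher in Keniry2022 and of 37.2% in those lower. Across the 127 bins the change from p0 followed GC content with a slope of -0.072 on the log2 scale per 1% of GC in both p10 Mulas2019 libraries. The slope was -0.033 and -0.034 at p20 Mulas2019, -0.026 and -0.032 at p10 Keniry2022, and -0.011 and -0.0097 in the libraries labelled p20 Keniry2022 replicates 1 and 2. The Pearson correlation of change and GC over these 127 bins of 1 library pair was -0.96 and -0.93 at p10 Mulas2019 and -0.81 and -0.71 at p20 Keniry2022, given as a description since bins share their libraries and p0. Slopes on chromosome 8 lay within those of single reference autosomes, which ran from -0.086 to -0.069 in p10 Mulas2019 replicate 1. The 42 bins poorest in GC stood 0.66 above the 43 richest in both p10 Mulas2019 libraries, 0.31 and 0.29 at p20 Mulas2019, 0.25 and 0.31 at p10 Keniry2022, and 0.11 and 0.086 at p20 Keniry2022. After GC correction this gap was between -0.011 and 0.013 in all 8 libraries.

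**Figure D3:**
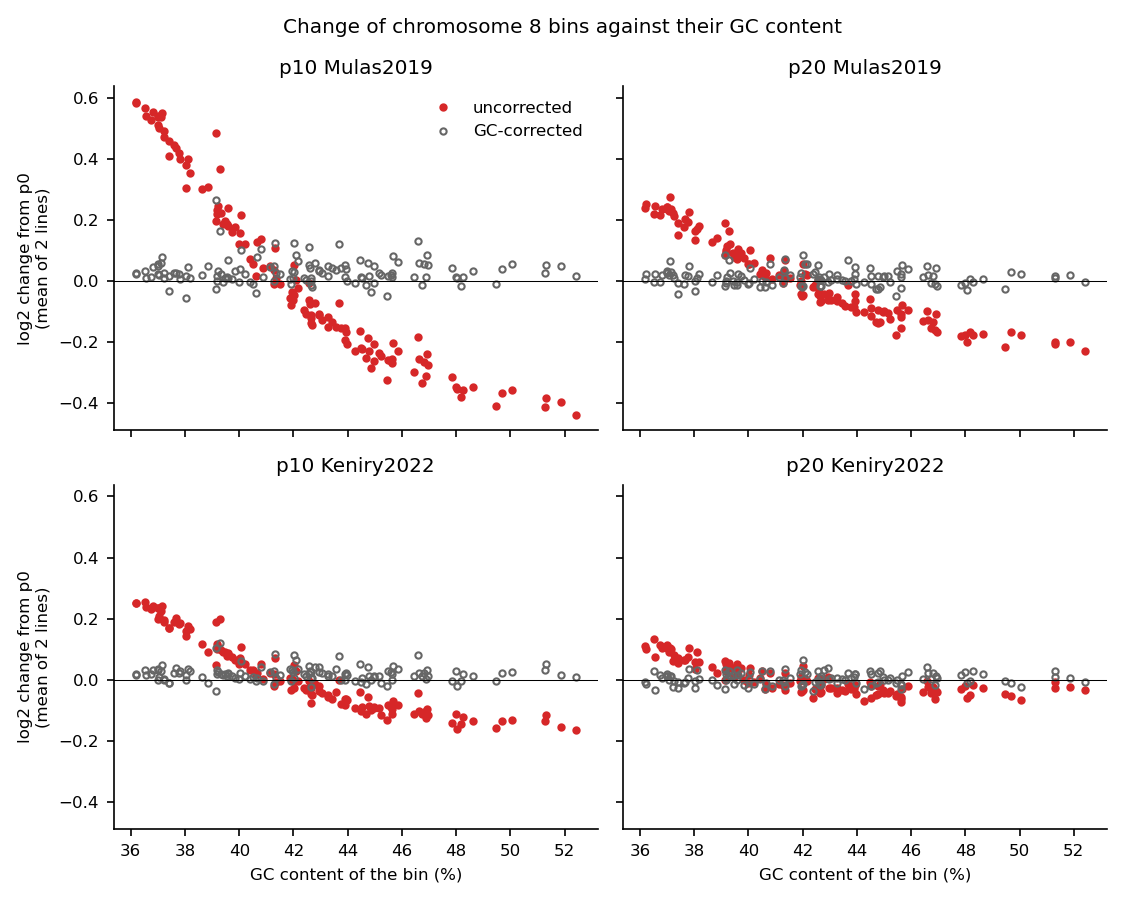
Change from p0 (y axis, log2, mean of 2 lines) of the 127 bins of chromosome 8 against their GC content (x axis, percent) in 4 groups, with filled red points for uncorrected and open grey points for GC-corrected values. The red points fall with GC content, most steeply at p10 Mulas2019 with a slope of -0.072 per 1% of GC, and the grey points show no such fall.

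With the GC correction 0 bins of chromosome 8 passed in the 6 comparisons, either in limma TREAT or with voom. The background was then 0.118% of all bins higher at p10 Mulas2019, 0.0394% lower between the conditions at p10, and 0 elsewhere. At an unadjusted p under 0.05 there was 1 bin of chromosome 8 at p10 Mulas2019 beside 0.866% of all bins, and 0 in the other comparisons, beside 1.22% of all bins at p20 Mulas2019, 0.118% between the conditions at p10 and 0 elsewhere. With no minimum change, 37 bins (29.1%) passed at p10 Mulas2019 beside 33% of all bins, 5 (3.94%) at p20 Mulas2019 beside 8.62%, and 2 (1.57%) between the conditions at p10 beside 3.5%. The correction narrowed the spread of the bins around p0, whose SD fell from 0.29 to 0.045 in p10 Mulas2019 replicate 1 and from 0.054 to 0.025 in the library labelled p20 Keniry2022 replicate 1. Counting error alone accounts for an SD of 0.020 and 0.019 in these libraries. The remaining spread was 2.24 and 2.44 times the counting error at p10 Mulas2019 and 1.28 and 1.26 times at p20 Keniry2022. All 127 bins had a median GC-corrected log2FC of 0.024 at p10 Mulas2019, where the median of all 2541 bins was 0.035. Values of single bins and loci carry this offset of the whole genome, whereas doses and segments are set against the reference. The median reference bin was at 0.033 and 0.027 in the p10 Mulas2019 libraries and between -0.0028 and 0.019 in the others, and once bins were centred on the reference autosomes the median log2FC of chromosome 8 at p10 Mulas2019 was -0.0050, beside 0.0056 over all bins.

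**Figure D4:**
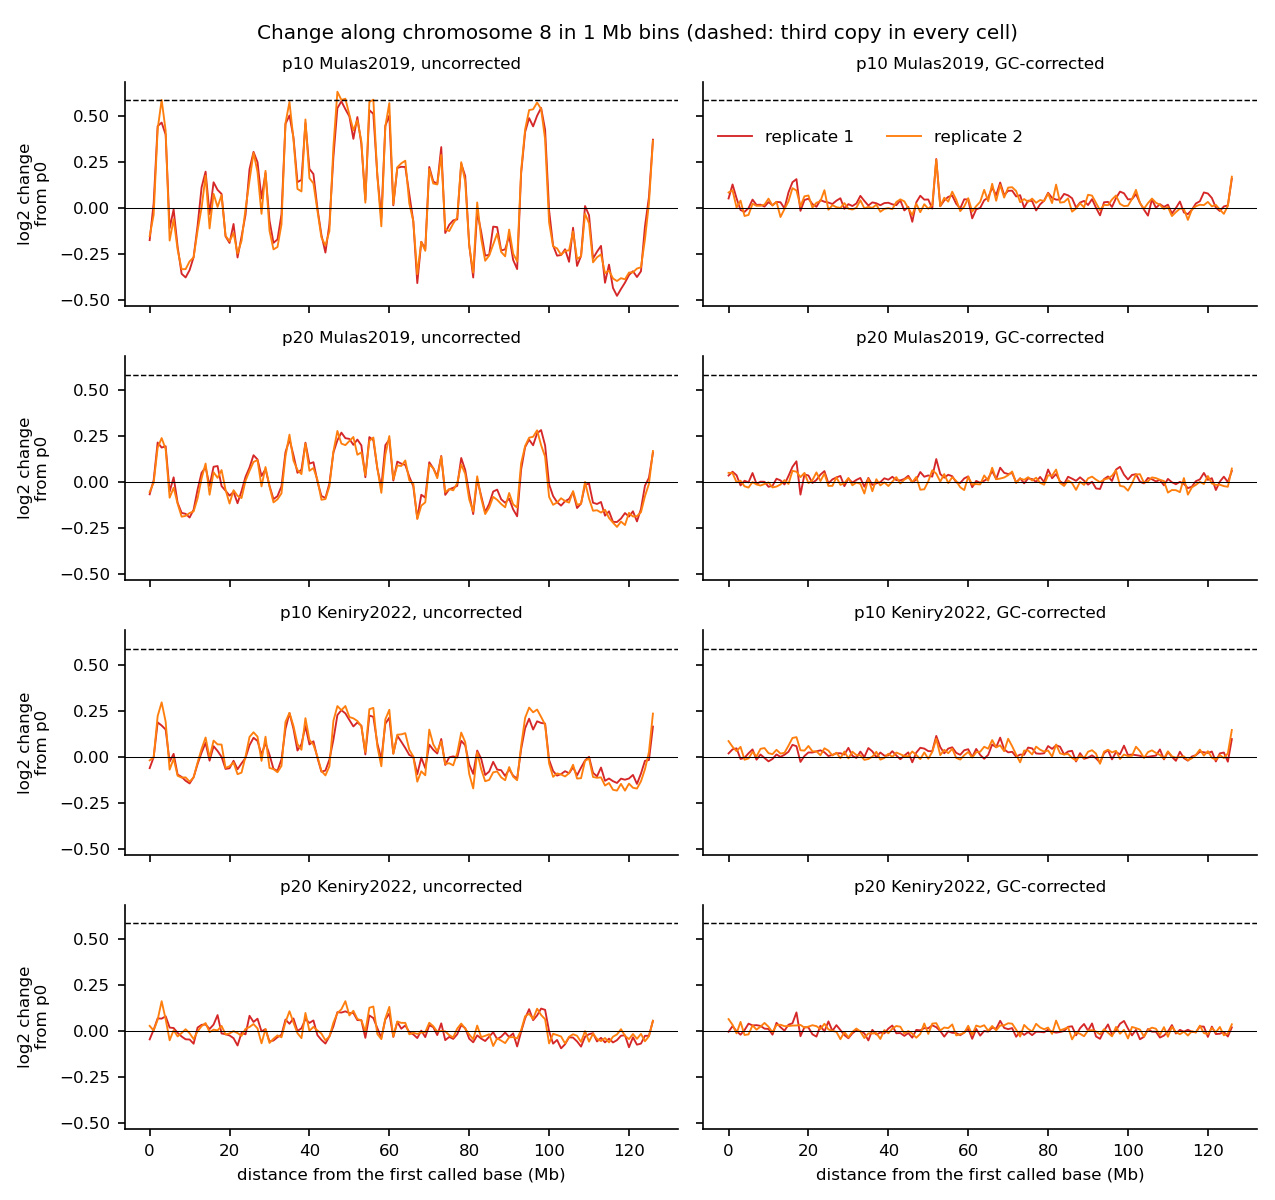
Change from p0 (y axis, log2) in bins of 1 Mb along chromosome 8 (x axis, distance in Mb from the first called base) for both lines of each group, uncorrected on the left and GC-corrected on the right. The dashed line marks an extra copy in every cell at 0.585. The uncorrected profile of p10 Mulas2019 alternates between blocks above and below 0 in both lines, and the corrected profiles stay close to 0 except for single bins such as the one at 0.26.

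The named bins show the size of this alternation. The 2 with the highest change from p0 at p10 Mulas2019 were neighbours with no start of a protein-coding gene. In chr8:50000001-51000000, with 36.2% GC, the lines were higher by 0.54 and 0.63, which gave a log2FC of 0.59 (SE 0.026, limma TREAT adjusted p = 7.67e-08). In chr8:51000001-52000000, also with 36.2% GC, they were higher by 0.58 and 0.59, with a log2FC of 0.58. A value of this size equals that of a full trisomy, but the GC-corrected log2FC of these bins was 0.027 and 0.022. The 2 with the lowest change were gene-rich neighbours near the far end of the chromosome. In chr8:120000001-121000000, with 52.4% GC and the starts of 10 protein-coding genes, the lines changed by -0.48 and -0.40, and the log2FC was -0.44 (SE 0.035, limma TREAT adjusted p = 6.67e-06). In chr8:121000001-122000000, with 51.3% GC and 13 gene starts, they changed by -0.44 and -0.38, and the log2FC was -0.41. After correction these bins were at 0.017 and 0.027.

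At p20 Mulas2019 the bins with the highest change were chr8:100000001-101000000 and again chr8:50000001-51000000. In the former the lines were higher by 0.27 and 0.28 (log2FC 0.27, limma TREAT adjusted p = 0.0115), and after correction still by 0.069 and 0.065, a log2FC of 0.067 that did not pass (limma TREAT adjusted p = 1). The lowest were chr8:120000001-121000000, at -0.23, which did not pass (limma TREAT adjusted p = 0.0910), and chr8:119000001-120000000, at -0.22, which did (limma TREAT adjusted p = 0.0399). The latter holds the starts of 19 protein-coding genes. Its GC-corrected value was -0.025.

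In segments of 10 Mb the same alternation was seen at a coarser scale. Of the 13 segments, chr8:50000001-60000000 (median bin GC of 37.1%) was highest, at 0.51 and 0.59 at p10 Mulas2019, 0.24 and 0.24 at p20 Mulas2019, 0.21 and 0.25 at p10 Keniry2022, and 0.10 and 0.11 at p20 Keniry2022. The last segment, chr8:120000001-129401213 (48.3% GC), was lower in all 8 libraries, from -0.35 in p10 Mulas2019 replicate 1 to -0.011 in the library labelled p20 Keniry2022 replicate 2. In these 2 segments the libraries at p10 Mulas2019 were the furthest from p0 and those at p20 Keniry2022 the nearest, which did not hold in every segment. In chr8:1-10000000, for example, p10 Mulas2019 was at 0.033 and 0.0073 and p20 Keniry2022 at 0.031 and 0.039. After GC correction all segments in all libraries lay between -0.038 and 0.036. The 2 SD limit from 218 segments of the reference autosomes corresponded to an extra copy of the segment in 3.45% to 6.31% of cells. Of 104 segment values on chromosome 8, 4 lay beyond it (3.85%), beside 4.01% of the reference segments. These were chr8:110000001-120000000 in p20 Mulas2019 replicate 2 (-0.038), chr8:50000001-60000000 in p10 Keniry2022 replicate 1 (0.028), chr8:10000001-20000000 in the library labelled p20 Keniry2022 replicate 1 (0.027) and chr8:1-10000000 in the one labelled replicate 2 (0.026). No 10 Mb segment was beyond the limit in both lines of a group. With 5 Mb segments the limits were 4.35% to 7.67% of cells, and 7 of 200 values lay beyond them (3.5%, against 4.34% in the reference).

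Of these 7 values, 4 came from chr8:70000001-75000000, a segment with a median bin GC of 45.9%. At p10 Mulas2019 it was beyond the limit in both lines, at 0.060 and 0.083, or an extra copy in 8.47% and 11.9% of cells beside limits of 7.64% and 7.67%. It was also beyond the limit in p20 Mulas2019 replicate 1 (0.036) and in p10 Keniry2022 replicate 2 (0.038). The other libraries were at 0.023 in p20 Mulas2019 replicate 2, at 0.023 in p10 Keniry2022 replicate 1, and at 0.019 and 0.027 in the libraries labelled p20 Keniry2022 replicates 1 and 2. This segment was thus above p0 in all 8 libraries, as were 3 of the 25 segments of chromosome 8 (12.0%) and 8.67% of the reference segments. It was the single one of 25 segments of chromosome 8 beyond the limit in both lines of a group. Among 415 reference segments, 7 (1.69%) were beyond it in both lines at p10 Mulas2019.

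Some small shifts had the same sign in all 8 later libraries, as did 14.7% of the 218 reference segments above p0 and 14.2% below it. The segment chr8:70000001-80000000 was above p0 in all 8, by 0.0062 to 0.036, and chr8:110000001-120000000 was below p0 in all 8, by values from -0.038 to -0.0012. The segment chr8:40000001-50000000 was also below p0 in all 8, from -0.029 to -0.0011. All 8 values share the same 2 p0 libraries, so that they are not 8 separate observations.

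**Figure D5:**
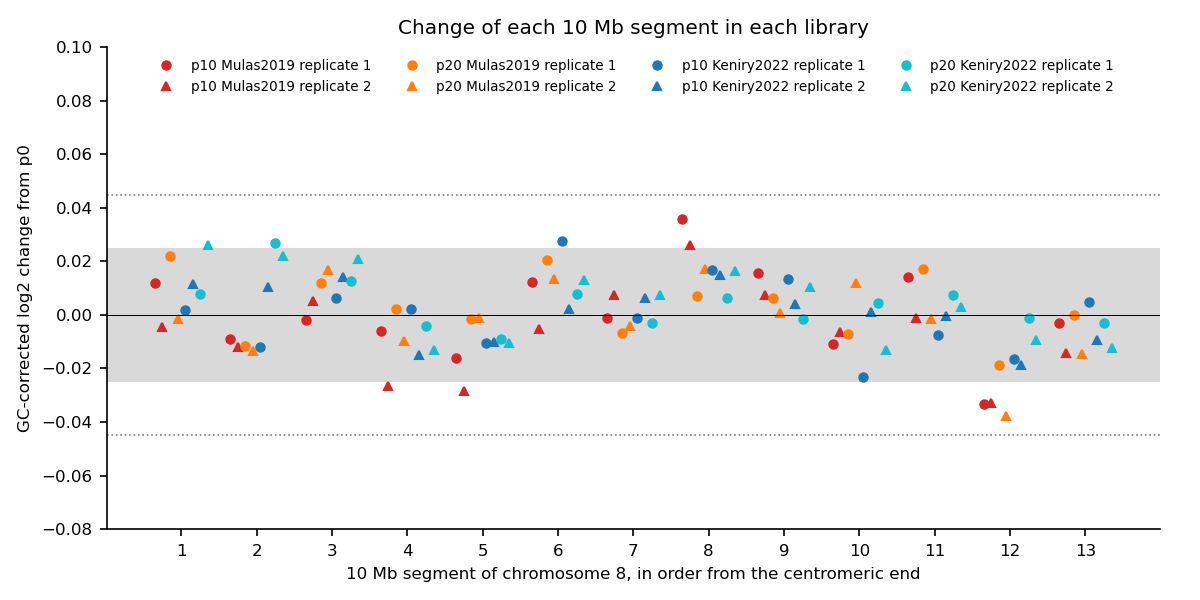
GC-corrected change from p0 (y axis, log2) of the 13 segments of 10 Mb along chromosome 8, numbered from the centromeric end (x axis), with circles for replicate 1 and triangles for replicate 2 of each group. The grey band is the narrowest and the dotted lines the widest of the 2 SD limits of the 8 libraries, and all values lie between -0.038 and 0.036.

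The 9 bins with the highest corrected values at p10 Mulas2019 were looked at singly, and they were chosen after their values were seen. Of these, 4 have over 1% of bases not called in the assembly and 5 have no gap. Before centring, 22 of the 127 bins (17.3%) were above p0 in all 8 libraries and 3 (2.36%) below it, beside 16.8% and 2.04% of the 2107 reference bins, with the offset given above included. After centring on the reference bins, 14 of the 127 were above and 11 below p0 in all 8, beside 10.7% and 9.59% of the reference bins. The values that follow are not centred. The bin chr8:55000001-56000000, of which 22.2% has no called base, was higher by 0.27 and 0.26 at p10 Mulas2019, 0.13 and 0.047 at p20 Mulas2019, 0.11 and 0.097 at p10 Keniry2022, and 0.021 and 0.043 at p20 Keniry2022. Its log2FC of 0.26 at p10 Mulas2019 was the highest on the chromosome and did not pass (limma TREAT adjusted p = 0.0898). The short last bin, chr8:129000001-129401213, of which 24.9% has no called base, was higher by 0.16 and 0.17 at p10 Mulas2019 and by 0.020 and 0.036 at p20 Keniry2022. The highest bin without a gap was chr8:71000001-72000000, at 0.14 and 0.13 at p10 Mulas2019 and from 0.020 to 0.14 in all 8 libraries. The bin chr8:69000001-70000000, also without a gap, was at 0.11 and 0.13 at p10 Mulas2019 and from 0.018 to 0.13 in all 8. The remaining bins without a gap, chr8:4000001-5000000, chr8:74000001-75000000 and chr8:73000001-74000000, had means of 0.11, 0.10 and 0.10 in that group. The last 2 and chr8:71000001-72000000 lie in the segment above that was beyond its limit in both lines at p10 Mulas2019. They are therefore not separate observations from that segment, and chr8:69000001-70000000 lies next to it. Of the 7 bins of the chromosome with over 1% of bases not called, 3 were not among the highest. Their means at p10 Mulas2019 were 0.0010 in chr8:34000001-35000000, 0.015 in chr8:39000001-40000000 and 0.063 in chr8:72000001-73000000.

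The defensin gene cluster, a family of antimicrobial peptide genes present in many similar copies, lies in 4 bins near the centromeric end. The median bin of chromosome 8 was at 432 and 435 CPM in the p0 libraries. In chr8:18000001-19000000, with the starts of 2 defensin genes, depth at p0 was 474 CPM and the corrected change ran from -0.0090 to 0.085. In chr8:19000001-20000000, with 12 defensin genes and 10.0% without a called base, depth was 282 CPM and all 8 libraries were higher than p0, by 0.029 to 0.14. In chr8:20000001-21000000, with 1 defensin gene and 25.0% without a called base, depth at p0 was 81.6 CPM. This bin was higher than p0 in all 8 libraries, by 0.030 to 0.16. In chr8:21000001-22000000, with the starts of 31 defensin genes, no gap and 151 CPM at p0, the change ran from -0.067 to 0.035 with both signs. The part of gaps and repeats in these values was not tested. Reads from near-identical gene copies cannot be placed with certainty, so the values of the defensin cluster are uncertain.

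Here 14 gene loci known from ES cell biology, placed by the annotation in 12 different bins of chromosome 8, are described by the bin that holds the gene's start. A bin of 1 Mb is shared by several genes, and its value is DNA dose and not expression. Uncorrected, 9 of the 14 fell at p10 Mulas2019 and 0 rose, beside 25.7% of all bins lower and 33.1% higher. These 9 loci are 8 bins, since Ctcf and E2f4 share a bin. The 14 loci had a median log2FC of -0.23, beside a median of -0.062 over all bins of the chromosome. After GC correction 0 of 14 passed in any of the 6 comparisons in limma TREAT, and the median at p10 Mulas2019 was 0.017, which is below the offset of 0.035 of all bins there.

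Among pluripotency and adhesion genes, the bin of Zfp42 (Rex1, a marker of naive pluripotency) had the only value of the list above 0, with 0.21 and 0.16 in the lines at p10 Mulas2019, and it did not pass (log2FC 0.19, limma TREAT adjusted p = 0.0515). This bin has 39.6% GC and was at 0.014 after correction. The bin of Sall1, a transcription factor gene, was at -0.10 and -0.20 and did not pass, with -0.15 before and 0.016 after correction. The bin of Cdh1, which encodes E-cadherin and holds ES cell colonies together, fell by 0.26 and 0.25 (limma TREAT adjusted p = 2.08e-04) and was at 0.027 after correction.

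The signalling loci differed with their base composition as well. Those of Fgfr1 (a fibroblast growth factor receptor), Irs2 (an adaptor of the insulin receptor), Junb (a transcription factor of the AP-1 family) and Tnks (tankyrase, which acts on Wnt signalling and telomeres) fell at p10 Mulas2019. The bin of Irs2, with 48.0% GC, changed by -0.36 and -0.33, and that of Junb, with 49.7% GC, by -0.38 and -0.35. Both also passed between the conditions at p10, where they were higher in Keniry2022 by 0.23 (limma TREAT adjusted p = 0.00158) and 0.23 (limma TREAT adjusted p = 0.0123). After correction the change of the Irs2 and Junb bins at p10 Mulas2019 was 0.015 and 0.041. The bins of Smad1 (a BMP signal transducer) and Gab1 (an adaptor of receptor kinases), with 42.6% and 41.9% GC, were at -0.076 and -0.057 and did not pass.

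Of the chromatin loci, Ctcf (an organiser of chromatin loops) shares its bin with E2f4 (a cell cycle regulator), and Smarca5 (a chromatin remodeller) shares its bin with Gab1. The bin of Ctcf and E2f4, with 46.9% GC, fell by 0.26 and 0.22 at p10 Mulas2019. After correction it was at 0.075 and 0.098, the highest corrected value of the list (log2FC 0.087, limma TREAT adjusted p = 1). The bins of Rbl2 (a pocket protein of the cell cycle) and Terf2 (a telomere-binding protein) also fell, with log2FC of -0.24 and -0.23, and were at 0.027 and -0.0067 after correction.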

How the data were processed

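DNA of 10 libraries was sequenced in 75 bp single-end reads per the methods, and per the labels and the submitters' processing notes the authors used bcl2fastq and mapped with Bowtie2 to mm10 (their versions are not given in the sources used here). As deposited by the authors, the table held log2 values in 10 kb windows, described as log CPM. Each deposited log2 value equalled that of a whole number of reads scaled to the largest library total, with 0.9 for 0 reads, and 100.0% of values gave whole reads at a tolerance of 0.1.

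Reads were scaled to CPM in 1 Mb bins (2541 of 2737 kept). GC content came from GRCm38, whose 21 chromosome lengths matched the table. The GC correction subtracted from log2 CPM its loess curve on GC content (span 0.3), fitted on the 17 reference autosomes. Chromosome doses and bins were fitted with limma 3.58.1 (statmod 1.5.0, R 4.3.3) over all 10 libraries, bins with a trended prior and TREAT, since the deposited unit is log2, and voom on recovered reads was an alternative. The percent of cells is the excess over 2 copies times 100. Segments needed at least 5 bins (3 at 5 Mb). Genes came from GENCODE, and 2 mitochondrial windows with 0 reads were left out. Other steps used pandas 2.3.3, numpy 2.4.6, matplotlib 3.10.9 and scipy 1.17.1 in Python 3.11.15, and fits were tested on simulated data.

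Pairing by replicate number comes from the methods, since each line was divided at p0. Over the 127 bins, the GC-corrected difference between replicates correlated from -0.10 to 0.22 in 6 pairs of groups without p20 Keniry2022 and from -0.11 to 0.14 in 4 pairs with it, and the block had a consensus correlation of -0.0016 for uncorrected and -0.074 for GC-corrected doses. Named bins were those with the 2 highest and 2 lowest changes at p10 and at p20 Mulas2019 in the uncorrected fit and the bins of 14 loci (1 further locus is not reported here), and sequences were the central 150 bases of the window nearest the middle of the bins with the highest and lowest change at p10 Mulas2019. The chromosome, the loci and the rules were chosen with earlier results of these data known. Alternatives were other filters, references, summaries, windows, GC curves, blocks and minimum changes, and leaving out each library. Blacklists were not used here.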

Additional observations from a re-analysis of the deposited data

Results flagged for a closer look

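The change of chromosome 8 from p0 differed between the conditions in the uncorrected fit. Keniry2022 minus Mulas2019 was 0.036 at p10 and 0.043 at p20 on the log2 scale (limma adjusted p = 0.00324 and 0.00278), with both lines in the same direction at each passage. After GC correction the differences were -0.0050 and 0.0035 and did not pass. At the level of bins, 40 of the 127 bins (31.5%) differed between the conditions at p10 before the correction, beside 29.3% of all 2541 bins, and 0 after it (limma TREAT).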

How the results depend on the processing

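The uncorrected fall at p10 Mulas2019 and the 3 uncorrected differences between the conditions kept their direction and passed under all alternatives run, but their size ranged from -0.070 to -0.017 for the fall, and from 0.013 to 0.050 at p10, 0.0072 to 0.054 at p20 and 0.019 to 0.084 at matched days for the differences. Leaving out 1 library gave -0.031 to -0.019 for the uncorrected p20 Mulas2019 change, whose call was lost when either p0 replicate 1 or p20 Mulas2019 replicate 2 was left out. Over all alternatives the uncorrected p20 Mulas2019 change ran from -0.040 to -0.0055. The uncorrected p10 Keniry2022 change passed with the mean of bins (-0.0045) and in 10 kb windows (-0.022). In 10 kb windows the uncorrected p20 Keniry2022 change was -0.0071, and the difference between the conditions in the change from p10 to p20 was -0.0057 (-0.0054 with the mean of bins). GC-corrected changes were small, and their sign moved with the settings. Over the 4 comparisons with p0 they stayed between -0.011 and 0.0037, with an upper bound of at most 1.40% of cells. With the mean of bins they were 0.0021 at p20 Mulas2019, 0.0012 at p10 Keniry2022, 0.0027 at p20 Keniry2022, 0.0030 between the conditions at p10, 0.0045 at matched days and -0.0024 for the difference in the change from p10 to p20. In 10 kb windows they were 0.00024 at p20 Mulas2019, 0.0025 at p20 Keniry2022, 0.0034 between the conditions at p10, 0.0082 at matched days and -0.0011 for the difference in the change. With a loess span of 0.75 they were 0.00014 at p10 Mulas2019, 0.0037 at p20 Keniry2022 and 0.0036 at matched days, and with the GC curve on all 19 autosomes 4.6e-05 at p10 Mulas2019. With no filter they were 0.0017 at p20 Mulas2019 and -0.0037 between the conditions at p20, and with a stricter filter (0.5 of the median bin) -0.00044 between the conditions at p20 and 0.00035 at matched days. With all 19 autosomes as reference the p20 Mulas2019 change was -0.011. Leaving out 1 library gave -0.0056 to 0.0012 for p20 Keniry2022 and -0.0045 to 0.0023 at matched days, above 0 without the library labelled p20 Keniry2022 replicate 2 alone. The cause of these sign changes was not tested.

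Counts of bins depended on the minimum change. Uncorrected, no minimum gave 104 bins at p20 Mulas2019 (80.6% of all bins), 95 at p10 Keniry2022 (73.4%), 20 at p20 Keniry2022 (17.4%), and 110 and 88 between the conditions at p10 and p20 (81.7% and 63.7%). A minimum log2FC of 1.1 gave 0 bins (0% of all bins) at p10 Mulas2019, at p20 Mulas2019, at p10 Keniry2022 and between the conditions at p10. GC-corrected, no minimum gave 37 bins at p10 Mulas2019 (33% of all bins), 5 at p20 Mulas2019 (8.62%) and 2 between the conditions at p10 (3.5%). The 7 bins at p10 Keniry2022 became 1 with no filter (2.43% of all bins), and 0 with the stricter filter, with voom or when centred on the reference autosomes. With no replicate block 4 bins passed at p20 Mulas2019 (4.76% of all bins) and 0 at p10 Keniry2022, and with a fixed replicate block 19 passed at p20 Mulas2019 (12.2%). The block, fixed, left out or with the p20 Keniry2022 numbers crossed (added after the data were seen), changed no call of a dose. Leaving out 1 library gave 0 to 15 bins at p20 Mulas2019 (0% to 10.4% of all bins), 0 to 13 at p10 Keniry2022 (0% to 8.34%), 23 to 45 between the conditions at p10 (14.4% to 35.4%) and, GC-corrected, 0 to 1 at p10 Mulas2019 (0.0394% to 0.197%, with the 1 bin when either p20 Mulas2019 library was left out). The largest uncorrected change in a library, a fall by 0.053 in p10 Mulas2019 replicate 1, was a fall by 0.018 with the mean of bins and by 0.028 by share of reads. GC-corrected, the largest was a fall by 0.0083 in p20 Mulas2019 replicate 2, which was 0.0017 with the mean of bins, where the largest was a rise by 0.0046 in the library labelled p20 Keniry2022 replicate 1. A change of chromosome 8 from p0 in fewer cells than the limit of 1.33% to 2.34% was not detectable, nor a dose at any time in fewer than 3.98% to 4.88%, and segments of 10 Mb had a limit of 3.45% to 6.31%.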
